A study of Bombus terrestris with 25 samples.

Results

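Cryptochrome-1-like (LOC100647270) was followed through the reproductive stages of the bumble bee queen (Bombus terrestris). It was 1 of the 3861 genes of the deposited count table, taken by its identifier, and its counts were summed over its 11 intervals, of 22679 in the table. It was singled out because its level in diapause had already been seen to stand out in these data, so its levels there are a description and carry no test. It was 1 of the 3793 genes that passed the filter on low counts.

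The study measured polyA RNA of the eviscerated abdomen with attached fat bodies in 25 single queens, 5 in each of 5 groups. Founder post diapause queens were 4 months old and had laid eggs and started a colony after a month at room temperature in daylight following the cold. Diapause queens had spent 9 to 10 weeks at 4 C and were taken at its end, at 3 months of age in the sample labels and 2.5 months in the series text. Founder post CO2 queens were 1.5 months old and had laid eggs and started a colony in the month after the gas. CO2-treated queens were 5 to 10 days old, had been anaesthetised with pure CO2 on each of 2 days, about 1 minute at a time, and were taken 24 h later. Mated queens were 5 to 10 days old. Every queen in all 5 groups was mated, and outside diapause the protocol kept queens fed in constant darkness, apart from the daylight given to the founders after diapause. Queens of the genetic lines line_141, line_191, line_207 and line_296 occurred in all 5 groups, those of line_51 in all but Mated, and line_426 in Mated alone, so a line had at most 1 queen per group. The labels give no time of day at sampling. In comparisons with Diapause or Founder post diapause queens, age changed together with temperature, light or feeding, and these cannot be told apart from the group. The labels give Founder post CO2 queens no cold, and the protocol kept them fed in darkness like CO2-treated and Mated queens. Their age and founding, and against Mated queens the gas, changed with the group and cannot be told apart from it. CO2-treated and Mated queens had the same age and no cold.

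Cryptochromes are flavoproteins related to the DNA photolyases. In mammals they pair with period proteins and shut down their own transcription by blocking the activators CLOCK and BMAL1, which makes them the repressors of the circadian feedback loop; in Drosophila the cryptochrome is instead a blue-light receptor that resets the clock. Bees carry the mammalian type, and clock genes are also active in peripheral tissues such as the insect fat body, the organ that stores fat and glycogen and is drawn on during diapause. The deposited name does not state the type of LOC100647270, and its protein was not analysed here.

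The gene lay on scaffold Group10.1, with 11 intervals between bases 8965993 and 8972653, a span of 6661 bases of which the intervals covered 4395. The sources used here do not give the genome build. The longest interval, of 1666 bases, was the third in scaffold order. Intervals 4 to 10 had the lengths and gaps of 7 consecutive coding exons of 1 deposited gene model, taken in reverse order. The model had 10 coding exons and 1710 coding bases in all. Only lengths and gaps were matched, and scaffold and position were not compared. The summed length is thus larger than that coding length, and the other 4 intervals were not assigned to coding or untranslated sequence.

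Library totals in the table lay between 534806 and 4057781 counts. CO2-treated replicate 3 had 534806 counts and Mated replicate 2 had 586405, and the other 23 libraries had at least 2432559. These shallow libraries were also the most alike of all pairs although their labels differ. With each library thinned to 534806 counts, the chi-square per degree of freedom was 2.38 between them and at least 5.51 in any other pair. Diapause replicate 1, of line_141, stood apart from the other 4 diapause libraries. Whether any of these 3 libraries carries an exchanged label was not tested, and their values are given under the labels as deposited.

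Founder post diapause queens had 24.4, 64.1, 65.7, 39.3 and 54.9 CPM of the gene in replicates 1 to 5, where CPM are counts scaled to a common table total with TMM factors. Diapause queens had 132.8, 813.7, 903.1, 909.3 and 749.8 CPM. Behind the diapause values stood 456, 2343, 2256, 2346 and 2414 counts. The 95% Poisson intervals ran from 415 to 500 counts for replicate 1 and from at least 2164 counts for the other 4, and cover counting error only. In 4 of 5 diapause queens the gene was thus above 740 CPM, and in 1 queen it was not.

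Founder post CO2 queens had 20.1, 108.0, 59.0, 102.5 and 95.8 CPM, with replicate 1 lowest, replicate 3 next and both under the rest. CO2-treated queens had 126.8, 130.7, 106.2, 112.4 and 122.3 CPM, the narrowest spread of any group. Mated queens had 150.1, 69.2, 91.1, 138.6 and 104.1 CPM. The 2 shallow libraries contributed 68 counts in CO2-treated replicate 3 and 47 in Mated replicate 2. The 4 high diapause queens lay above all 21 other libraries, whereas Diapause replicate 1 lay inside the range of Mated queens.

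**Figure D1:**
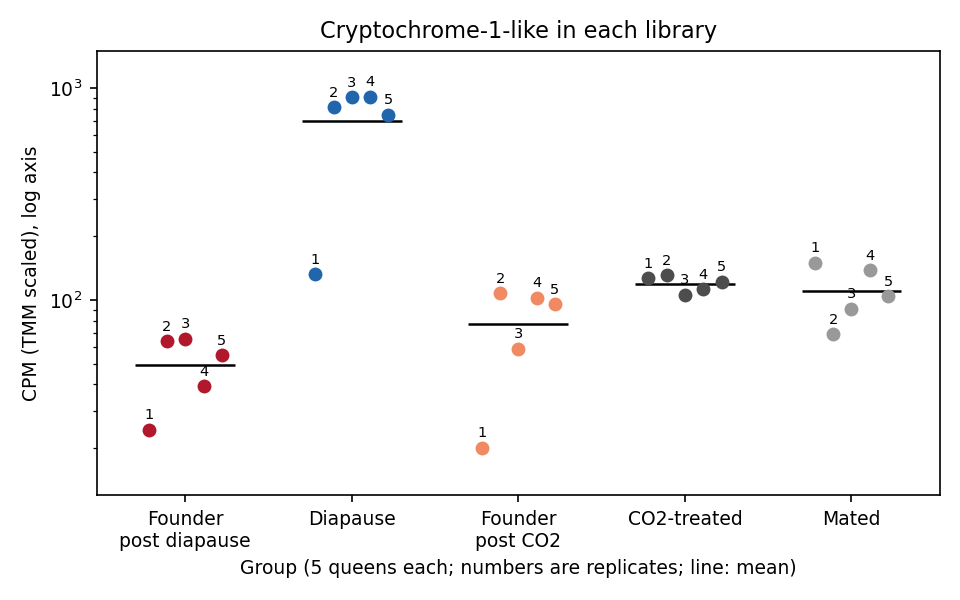
CPM of cryptochrome-1-like on a log axis in each of the 25 libraries, with 5 queens per group, the replicate number above each point and a line at the group mean. Diapause replicates 2 to 5 lie between 749.8 and 909.3 CPM, above every other library, and Diapause replicate 1 lies at 132.8 CPM beside the Mated and CO2-treated queens.

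The group means were 49.7 ± 17.6 CPM in Founder post diapause, 702 ± 325 CPM in Diapause, 77.1 ± 37.2 CPM in Founder post CO2, 120 ± 10.2 CPM in CO2-treated and 111 ± 33.5 CPM in Mated queens (SD, n = 5 each). In falling order this is Diapause, CO2-treated, Mated, founder after CO2 and founder after diapause. Per kilobase of summed intervals, so that genes can be compared, the mean level was 11.3 CPM per kb in Founder post diapause queens, above 30.7% of the tested genes, and 160 CPM per kb in Diapause queens, above 91.6%. It was 17.5 CPM per kb in Founder post CO2 queens, above 33.4% of genes. In CO2-treated queens it was 27.2 CPM per kb and in Mated queens 25.2, above 41.9% and 38.6% of genes. On these group means the gene thus stood well above the median gene in diapause and below it in the other 4 groups. Diapause replicate 1, at 132.8 CPM, lay far below the diapause mean, so the statement does not cover that queen.

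As a description, the fitted log2 fold change of Diapause over Mated was 2.66 ± 0.44 (SE), rank 7 of 3793 from the highest. Diapause over CO2-treated was 2.55 ± 0.44, rank 22, and Diapause over Founder post CO2 was 3.18 ± 0.45, rank 72. Founder post diapause over Diapause was -3.82 ± 0.46, rank 65 from the lowest. The median log2 fold change of all tested genes was -0.01, 0.00, -0.17 and 0.28 in the same 4 comparisons. Of all tested genes, 5.69% were called in Diapause against Mated, 6.43% in Diapause against CO2-treated, 68.8% in Diapause against Founder post CO2 and 80.9% in Founder post diapause against Diapause. A gene was called at an adjusted p under 0.05 in the edgeR quasi-likelihood fit over all 25 libraries, and nothing is read from these shares for cryptochrome-1-like, which was chosen on its diapause level. These 4 comparisons share the diapause queens and are not separate evidence of one another. The fat body marker sums, given with the other markers, lay lower in Diapause queens than in 4 of 5 Mated queens. Single fat body markers went both ways, from -3.40 to 1.74 on the log2 scale in Diapause over Mated. The part of these markers in the values above was not tested. Without Diapause replicate 1 the log2 fold change of Diapause over Mated was 2.88 and that of Founder post diapause over Diapause -4.04. Without the 2 shallow libraries they were 2.50 and -3.78, and over 34 alternatives they ran from 2.50 to 2.88 and from -4.09 to -3.71.

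Comparisons without the diapause group were not used to choose the gene, although the same Mated queens were part of its contrast, and these were tested. Founder post diapause queens had lower levels than Mated queens, with a log2 fold change of -1.16 ± 0.42 (SE, edgeR adjusted p 0.0207) and a 95% interval of the fold from 0.243 to 0.827. All 5 founders lay below all 5 Mated queens. The closest pair was a founder at 65.7 CPM and the shallow Mated replicate 2 at 69.2 CPM. The latter rests on 47 counts with a 95% Poisson interval from 34.5 to 62.5, so that gap is within counting error. The other Mated queens had at least 91.1 CPM. Of all tested genes, 66.4% were called in this comparison, 30.6% higher and 35.8% lower in founders, so a call here was common. Marker sums moved with it. The 5 muscle markers summed to 4592 to 7423 CPM in Founder post diapause queens, against 11890 to 35127 CPM in Mated queens. The 6 germ line and ovary names summed to 774 to 4219 CPM in Founder post diapause queens, against 453 to 720 CPM in Mated queens. The 6 fat body markers summed to 1063 to 2141 CPM in Founder post diapause queens, against 20741 to 46735 CPM in 4 Mated queens and 741 CPM in the shallow Mated replicate 2. Single members of these lists went both ways. Their log2 fold changes ran from -6.42 to 3.18 for fat body, -2.68 to 3.76 for muscle and -0.57 to 3.43 for germ line and ovary. The part of these markers in the result was not tested. The call was lost without Mated replicate 1, at -1.02 with an adjusted p of 0.0521, and without Founder post diapause replicate 1, at -1.03 with an adjusted p of 0.0558. Over 34 alternatives the adjusted p ran from 0.00803 to 0.0558 and the log2 fold change from -1.33 to -1.02.

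The remaining tested comparisons of the gene did not pass. CO2-treated over Mated gave a log2 fold change of 0.11 ± 0.42 (edgeR adjusted p 0.9997), with a 95% interval of the fold from 0.591 to 1.97; 0.395% of all genes were called. Its sign turned without Mated replicate 2, at -0.01. Founder post CO2 over CO2-treated was -0.63 ± 0.42 (edgeR adjusted p 0.228), with an interval of the fold from 0.352 to 1.18 beside 28.3% of genes called, 14.8% higher and 13.6% lower. Founder post CO2 over Mated was -0.52 ± 0.42 (edgeR adjusted p 0.300), with an interval from 0.380 to 1.27 beside 39.2% called. Founder post diapause over Founder post CO2 was -0.63 ± 0.42 (edgeR adjusted p 0.616), with an interval from 0.352 to 1.18. In that last comparison edgeR called 0% of all genes, with 273 at an unadjusted p under 0.05 and 5 called by DESeq2. In the order of group means, the neighbours below Diapause thus did not differ beyond their spread. The intervals still allow a level up to 1.97-fold higher after CO2.

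The levels could be followed within lines. Diapause over Mated was 6.02-fold in line_296, 8.23-fold in line_191 and 13.1-fold in line_207, but 0.958-fold in line_141. The value of line_207 rests on the shallow Mated replicate 2, with 47 counts, and without it the highest was 8.23-fold. Diapause over CO2-treated was 6.67-fold to 7.66-fold in line_191, line_207, line_296 and line_51, and 1.09-fold in line_141; the highest, in line_51, rests on the shallow CO2-treated replicate 3, and without it the highest was 7.17-fold. Diapause over Founder post CO2 was 6.61-fold in line_141, whose founder also had the lowest level of its group, and 6.94-fold to 15.3-fold in the other 4 lines. Founder post diapause over Diapause was 0.483-fold in line_141, against 0.0269-fold to 0.0732-fold in the other 4 lines. With 1 queen per line and group, a trait of line_141 and a trait of that queen or library cannot be told apart.

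Among the groups without diapause, Founder post diapause over Mated was 0.353-fold to 0.603-fold, below 1 in 4 of 4 lines, and from 0.438-fold without line_207, whose Mated queen is the shallow replicate 2. Founder post CO2 over CO2-treated was below 1 in 5 of 5 lines, at 0.164-fold in line_141 and 0.451-fold to 0.961-fold in the others. Founder post diapause over Founder post CO2 was above 1 in 2 of 5 lines, and CO2-treated over Mated in 2 of 4, 1 of them line_207. The last 2 comparisons therefore had no common direction among lines.

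**Figure D2:**
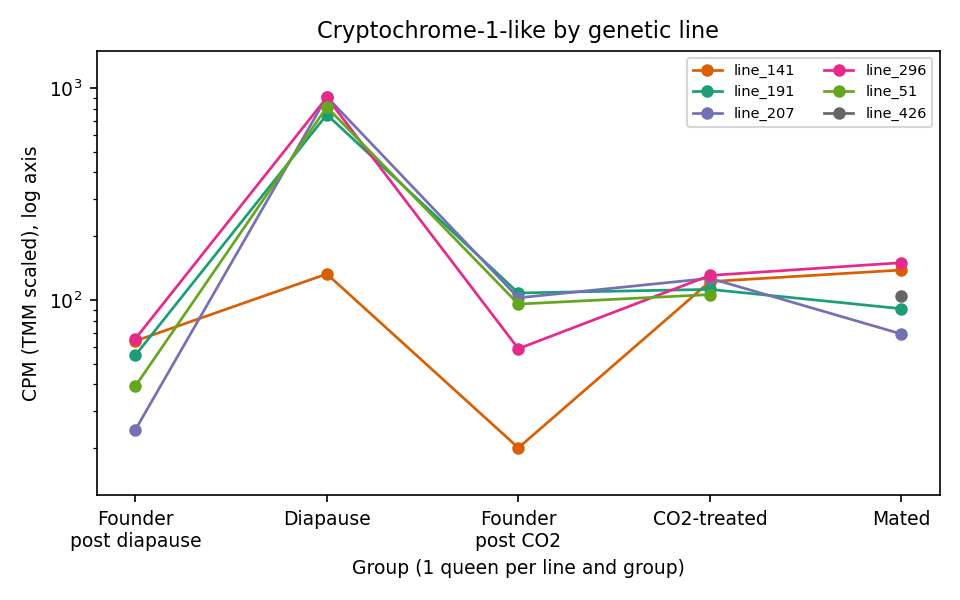
CPM of cryptochrome-1-like on a log axis, with 1 queen per genetic line and group, joined by line; line_426 has a Mated queen alone and line_51 has none. The lines line_51, line_191, line_207 and line_296 share a peak in Diapause, and line_141 has 132.8 CPM there against 138.6 CPM in Mated.

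The higher level in diapause ran over the whole gene. For each of the 11 intervals, the mean of Diapause queens was 4.92-fold to 8.32-fold that of Mated queens, 3.38-fold to 8.72-fold that of CO2-treated queens and 7.99-fold to 10.8-fold that of Founder post CO2 queens. Founder post diapause over Diapause was 0.0598-fold to 0.0904-fold over the intervals. Founder post diapause over Mated was 0.336-fold to 0.630-fold. No interval went against the sum.

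The longest interval, the third, held 19.1% of the gene's counts in Founder post diapause, 20.3% in Diapause, 24.2% in Founder post CO2, 24.0% in CO2-treated and 25.5% in Mated queens. The last interval held 15.8% in Founder post diapause, 17.1% in Diapause, 14.8% in Founder post CO2, 11.7% in CO2-treated and 15.8% in Mated queens. One library had another profile. In CO2-treated replicate 3 interval 9 held 21 of 68 counts, 30.9% with a 95% Wilson interval from 21.2% to 42.6%, against 3.25% to 10.6% in the other 24 libraries. In the same library the last interval held 2 of 68 counts, with an upper Wilson bound of 10.1%, against 10.6% to 20.1% elsewhere. The exon-level values of CO2-treated queens rest in part on that shallow library.

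**Figure D3:**
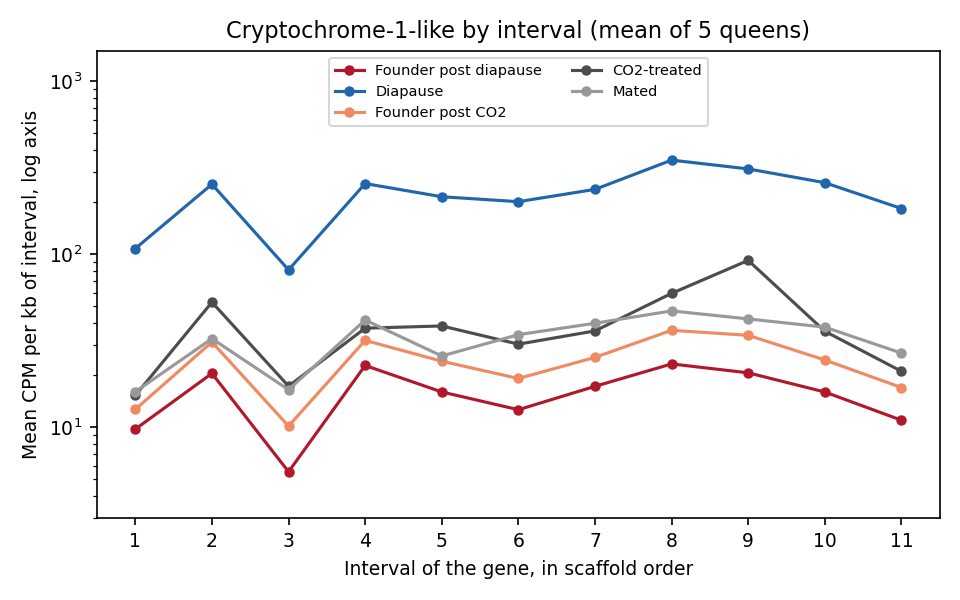
Mean CPM per kilobase of each of the 11 intervals of cryptochrome-1-like in scaffold order, on a log axis, as the mean of 5 queens per group. The Diapause line lies above the other 4 at every interval, and the CO2-treated line has a peak at interval 9, where 21 of 68 counts of CO2-treated replicate 3 fell.

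Period, the repressor partner of cryptochromes, was not called in Diapause against Mated or CO2-treated queens and was lower in the founders after diapause. Its levels were 54.5, 88.9, 117.7, 135.7 and 126.4 CPM in Diapause queens, against 286.9, 107.5, 44.8, 45.1 and 64.3 CPM in Mated queens. The groups overlapped widely, with a log2 fold change of -0.07 ± 0.62 (SE, edgeR adjusted p 0.963). Against CO2-treated queens, at 163.5, 186.5, 149.9, 43.2 and 61.5 CPM, it was -0.20 ± 0.62 (edgeR adjusted p 0.860). Founder post diapause queens had 14.6, 61.3, 21.4, 19.6 and 52.1 CPM of period, lower than Diapause queens with a log2 fold change of -1.63 ± 0.64 (edgeR adjusted p 0.0228). That call was lost without Founder post diapause replicate 4 (adjusted p 0.0539) and with genetic line as a replicate block (adjusted p 0.0617). Against Mated queens the same founders had a log2 fold change of -1.69 ± 0.64 (edgeR adjusted p 0.0240). This call ended with the line block (adjusted p 0.0653) and without any 1 of Mated replicate 1 or Founder post diapause replicates 1, 3 and 4; without Mated replicate 1 the change was -0.93, with an adjusted p of 0.176.

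Hepatic leukemia factor-like (LOC100651344) belongs to the PAR bZIP transcription factors, whose members in mammals are outputs of the clock. It had 701.8, 1007.9, 954.3, 1484.9 and 483.6 CPM in Diapause queens, against 786.8, 578.6, 492.5, 954.5 and 396.5 CPM in Mated queens, overlapping groups with a log2 fold change of 0.53 ± 0.60 (edgeR adjusted p 0.643). Its levels in Founder post diapause queens, at 45.1, 435.6, 139.5, 136.6 and 235.7 CPM, were all below the Diapause queens. It fell in founders by 2.22 on the log2 scale against Diapause (SE 0.63, edgeR adjusted p 0.00314). Against Mated queens it fell by 1.69 (SE 0.62, edgeR adjusted p 0.0208), a call lost without Mated replicate 4 or without Founder post diapause replicate 1 (adjusted p up to 0.0601).

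Ecdysone-induced protein 75B, isoforms C/D-like (LOC100644185; E75B-like for short), a nuclear receptor that in Drosophila also acts on the clock, had 252.6, 1957.7, 2477.9, 1711.7 and 897.4 CPM in Diapause queens, against 375.3, 2548.7, 314.8, 784.3 and 212.8 CPM in Mated queens. Diapause replicate 1 was again the lowest of its group, but the high Mated value came from the shallow replicate 2. The log2 fold change was 0.79 ± 0.80 (edgeR adjusted p 0.589). Without the 2 shallow libraries it was 1.76 (adjusted p 0.171), and with Diapause replicate 1 also left out it was 2.03 (adjusted p 0.0657). Founder post diapause queens had 19.3, 218.0, 79.6, 51.7 and 114.2 CPM, so that E75B-like fell by 3.92 on the log2 scale against Diapause (SE 0.89, edgeR adjusted p 0.000578). Against Mated queens it fell by 3.13 (SE 0.86, edgeR adjusted p 0.00431), and by 2.08 without the 2 shallow libraries (adjusted p 0.0294). No gene of the table matched the names searched for Clock, cycle, timeout or clockwork orange. The search for vrille and related PAR bZIP factors found hepatic leukemia factor-like alone. The table covers part of the transcriptome, so nothing is read from these missing names.

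A list of 17 clock genes, all tested, held period, the 2 transcription factors above, 13 kinases, phosphatases and ubiquitin ligase subunits of the kinds that act on clock proteins, and takeout-like. The regulators were matched by product name, and most act on many other proteins as well. Of these 17, edgeR called 0 in Diapause against Mated, with 2 at an unadjusted p under 0.05 and 0 called by DESeq2, beside the 5.69% of all genes called. Their log2 fold changes ran from -0.70 to 0.88, with a median of 0.43 against -0.01 for all genes. Cryptochrome-1-like had 2.66 but was chosen on its diapause level, so no contrast with the list is read from it. Against CO2-treated queens the counts were the same, 0 by edgeR, 2 unadjusted and 0 by DESeq2, beside 6.43% of all genes, with a median of 0.32 against 0.00.

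Leaving out the 2 shallow libraries and Diapause replicate 1 raised the number of clock genes called to 3 in Diapause against Mated, beside 31.5% of all genes. Protein phosphatase 1 regulatory subunit 16A-like (LOC100645975) was then higher, and casein kinase II subunit beta-like (LOC100644006) and F-box/WD repeat-containing protein 5-like (LOC100652284) were lower. The same 3 genes were called in Diapause against CO2-treated in that setting, beside 36.5% of all genes. F-box/LRR-repeat protein 3-like (LOC100646239), named for the mouse ubiquitin ligase subunit that targets cryptochromes for breakdown, had log2 fold changes of -0.02 ± 0.42 in Diapause over Mated (edgeR adjusted p 0.985) and -0.46 ± 0.42 in Founder post diapause over Diapause (edgeR adjusted p 0.306).

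Founder post diapause queens differed from Diapause queens in 15 of the 17 clock genes, 5 higher and 10 lower, beside 40.2% and 40.6% of all genes. The muscle and fat body marker sums, given with the other markers, moved with this list, and their part in it was not tested. The median log2 fold change of the list was -1.50, against 0.28 for all genes and -3.82 for cryptochrome-1-like, which was chosen on its diapause level. Beside the 3 transcription regulators, casein kinase I isoform gamma-3-like (LOC100642629) fell by 2.01, casein kinase II subunit alpha-like (LOC100650733) by 1.76, cullin-1-like (LOC100650301) by 1.67 and F-box/LRR-repeat protein 20-like (LOC100646037) by 2.32 on the log2 scale. Protein phosphatase 1 regulatory subunit 3C-B-like (LOC100645503), of a family that ties the phosphatase to glycogen, fell by 3.57. Takeout-like (LOC100643577), whose Drosophila namesake is an output of the clock, had a log2 fold change of 4.01 ± 0.68 (edgeR adjusted p 4.25e-05), and casein kinase II subunit beta-like one of 0.99 ± 0.29 (edgeR adjusted p 0.00366). The 2 subunits of casein kinase II, which phosphorylates period in Drosophila, thus moved in opposite directions. The calls of F-box/LRR-repeat protein 7-like (LOC100643628, 0.81) and F-box/WD repeat-containing protein 5-like (0.87) were each lost when single libraries were left out, in 6 and 5 of 25 cases.

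In Founder post diapause against Mated, 10 of the 17 clock genes were called, 2 higher and 8 lower, beside 66.4% of all genes, 30.6% higher and 35.8% lower. In CO2-treated against Mated edgeR called 0 of 17, beside 0.395% of all genes, with 0 at an unadjusted p under 0.05 and 0 by DESeq2. Between the 2 kinds of founder it called 0 of 17, beside 0% of all genes, with 1 at an unadjusted p under 0.05 and 0 by DESeq2. In Founder post CO2 against CO2-treated 3 of 17 were called, beside 28.3% of all genes: takeout-like at 2.68 ± 0.64 (edgeR adjusted p 0.00532), casein kinase II subunit beta-like at 0.77 ± 0.29 (edgeR adjusted p 0.0468) and F-box/LRR-repeat protein 20-like at -1.54 ± 0.43 (edgeR adjusted p 0.0136). The kinase subunit lost its call in 16 of 25 cases when 1 library was left out, and F-box/LRR-repeat protein 20-like lost it without CO2-treated replicate 3 (adjusted p 0.0523). DESeq2 called 5 of 17 there, beside 1355 of all genes, and edgeR 1 without the 2 shallow libraries, beside 15.8% of all genes.

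**Figure D4:**
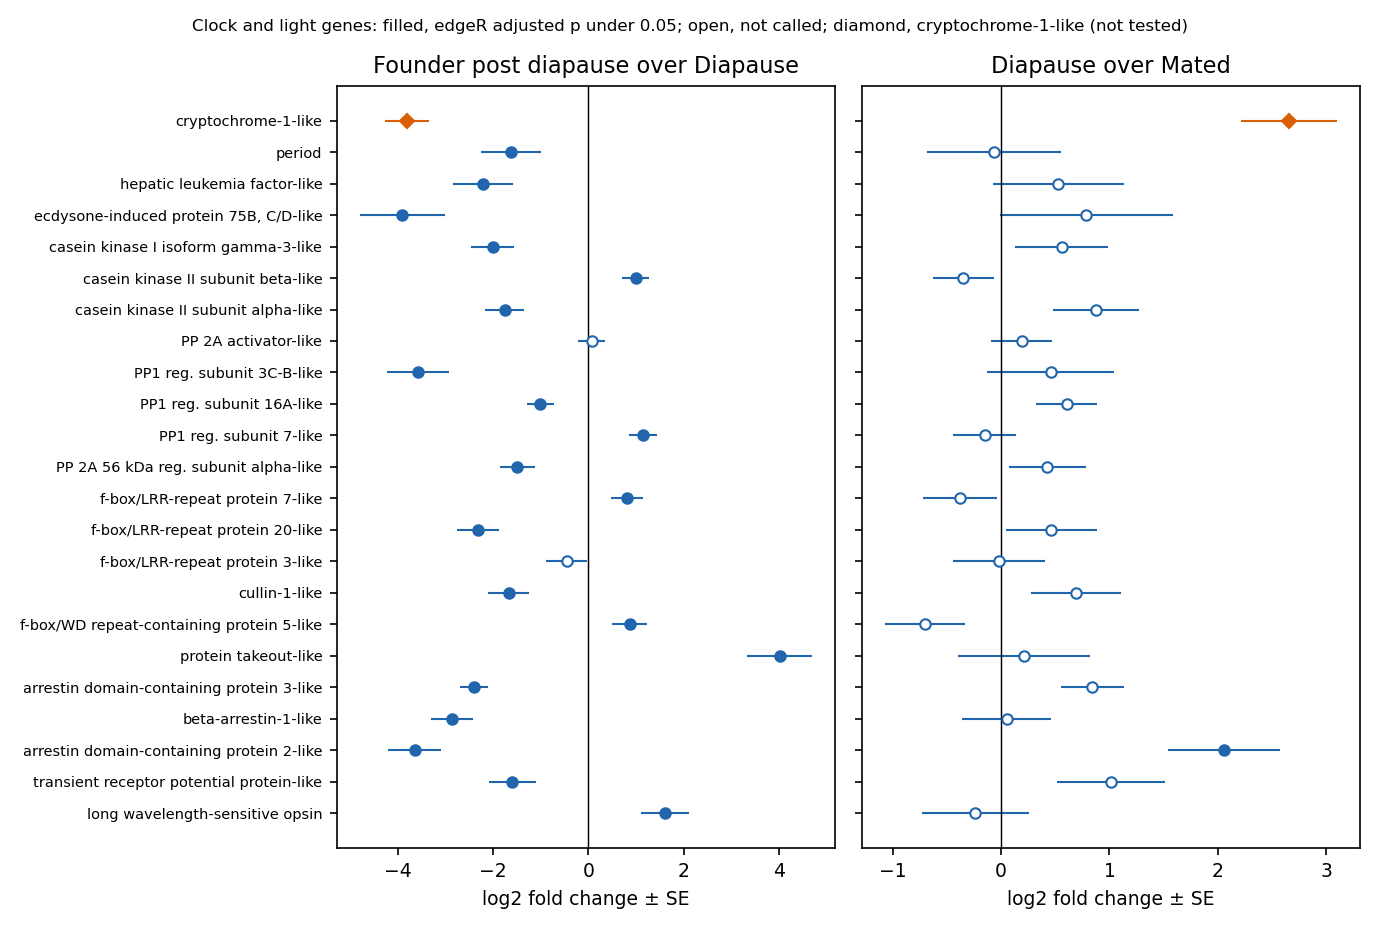
Log2 fold changes with their SE of cryptochrome-1-like (diamond, not tested) and of the tested clock and light genes, in Founder post diapause over Diapause on the left and Diapause over Mated on the right; filled points had an edgeR adjusted p under 0.05. In Diapause over Mated cryptochrome-1-like, chosen on its diapause level, stands at 2.66 and the clock genes run from -0.70 to 0.88. In Founder post diapause over Diapause 15 of 17 clock genes were called, beside 80.9% of all genes.

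No other gene of the table was named as a cryptochrome or a photolyase. A list of light-related genes by product name held 6, of which 5 were tested; arrestin homolog (LOC100652199) did not pass the filter. Arrestins end the signalling of receptors such as opsins, and arrestin domain-containing proteins are relatives with wider roles in receptor traffic. Arrestin domain-containing protein 2-like (LOC100649489) had 1.7, 42.4, 15.2, 16.3 and 26.7 CPM in Diapause queens, against 4.2, 8.8, 4.1, 3.3 and 5.5 CPM in Mated queens. These rest on few counts, 6, 122, 38, 42 and 86 in Diapause and 10, 6, 14, 8 and 19 in Mated queens. Diapause replicate 1 was thus below all 5 Mated queens and the other 4 above them, with a log2 fold change of 2.06 ± 0.51 over all 5 (edgeR adjusted p 0.0181). This call was lost with the line block (adjusted p 0.133) and without any 1 of Diapause replicates 2 and 5 or Mated replicates 1, 3 and 4 (adjusted p up to 0.0892); without Diapause replicate 1 it was 2.29 (adjusted p 0.000346). Against CO2-treated queens it was 2.77 ± 0.54 (edgeR adjusted p 0.00430).

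Arrestin domain-containing protein 3-like (LOC100643805) had 165.2, 471.6, 497.2, 332.2 and 629.9 CPM in Diapause queens, against 124.2, 140.5, 173.4, 193.0 and 120.3 CPM in CO2-treated queens, a log2 fold change of 1.48 ± 0.29 (edgeR adjusted p 0.00505). In 4 of 5 diapause queens it lay above all CO2-treated queens, and in replicate 1 within their range. Against Mated queens it was 0.84 ± 0.29 (edgeR adjusted p 0.0796), and 0.99 with an adjusted p of 0.00722 without Diapause replicate 1. Between Founder post diapause and Diapause queens, 4 of the 5 light genes fell and the long wavelength-sensitive opsin LWRh2 rose, beside 80.9% of all genes called, 40.2% higher and 40.6% lower. The opsin had a log2 fold change of 1.61 ± 0.50 (edgeR adjusted p 0.00617). Its levels were 473.7, 116.2, 167.8, 242.2 and 180.8 CPM in Founder post diapause queens, against 86.2, 57.3, 69.3, 60.1 and 112.4 CPM in Diapause queens, without overlap.

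The 10 genes whose pattern was most like that of cryptochrome-1-like were taken by the smallest root mean square difference of log2 CPM, each gene centred on its own mean, over all 25 libraries. As they were chosen on every library, their values are a description and carry no test. The difference ran from 0.433 for G-protein-signaling modulator 2-like (LOC100647071) to 0.559 for the tenth gene, with 0.562 for the next gene outside the set and 1.63 for the median gene. The gene's own spread on this scale was 1.42. Pearson's r with cryptochrome-1-like ran from 0.923 to 0.953 over the 25 libraries, which share their scaling and fall into groups.

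The other 9 genes were the hypothetical proteins LOC100645771, LOC100642934, LOC100648836 and LOC100651818, DNA (cytosine-5)-methyltransferase PliMCI-like (LOC100649098), tankyrase-1-like (LOC100645812), DNA2-like helicase-like (LOC100646210), FAM117B-like (LOC100649196) and the elongation factor SPT6-like (LOC100652318), the last given as a miscellaneous RNA in the table. The methyltransferase, named after the sea urchin maintenance enzyme that copies DNA methylation after replication, had 39.9, 215.3, 197.3, 306.2 and 215.6 CPM in Diapause queens, against 49.6, 50.1, 40.1, 60.3 and 29.1 CPM in Mated queens. G-protein-signaling modulator 2-like, named for a scaffold of spindle orientation in mammals, had 121.5, 627.6, 650.5, 963.6 and 528.3 CPM in Diapause queens, against 187.2, 162.0, 125.9, 196.1 and 113.6 CPM in Mated queens. In both genes 4 of 5 diapause queens were high and replicate 1 lay within the Mated range. The log2 fold changes of the 10 genes in Diapause over Mated ran from 1.51 to 2.30.

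The set depended on how likeness was measured and on which libraries entered. Only 1 of the 10 was also among the 10 highest by Pearson's r, and 4 of the 10 remained without the 2 shallow libraries. Leaving out any single library kept 7 to 10 of them.

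**Figure D5:**
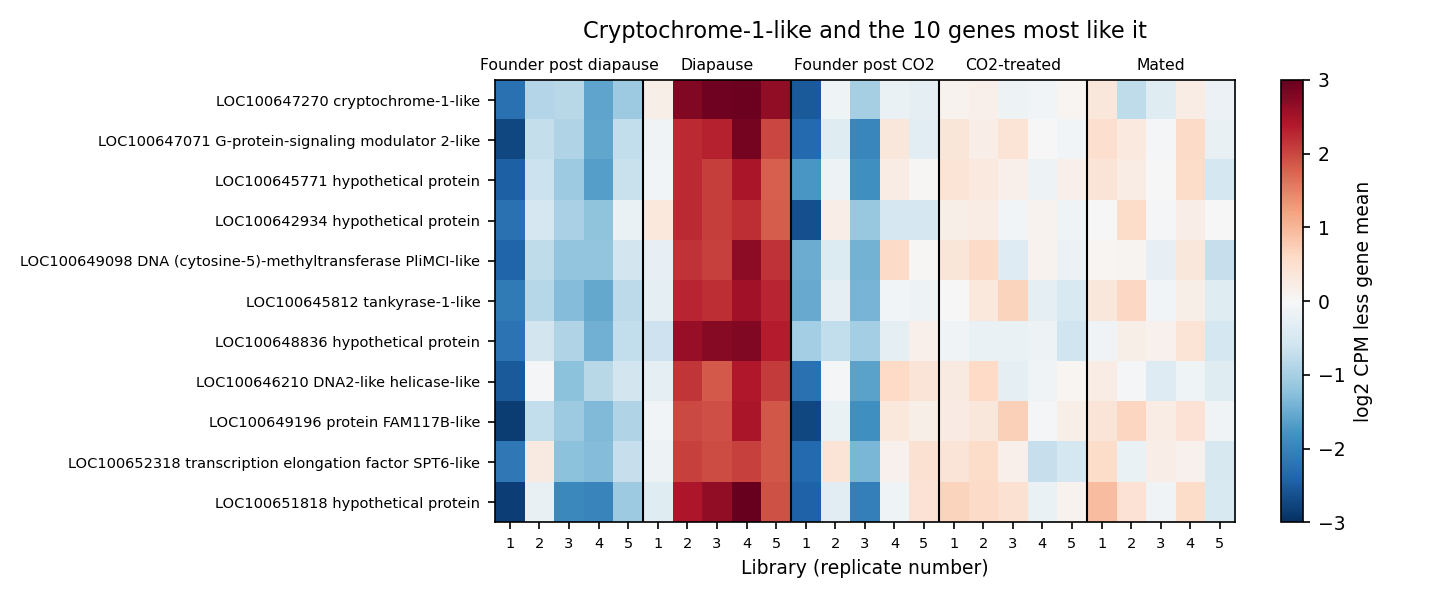
Log2 CPM less each gene's mean over the 25 libraries, in colour, for cryptochrome-1-like and the 10 genes most like it (rows, in order of likeness), with libraries in columns by group and replicate. Diapause replicates 2 to 5 are high in all 11 rows, Diapause replicate 1 is near the gene mean, and replicate 1 of both founder groups is low.

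Diapause replicate 1 was low in many genes besides cryptochrome-1-like. It lay below the other 4 diapause queens in 10 of the 10 alike genes, in 9 of 17 clock genes and in 1537 of 3793 tested genes. Among the 139 genes called higher in Diapause against Mated, 3.66% of those tested, it lay below the other 4 diapause queens in 135. It was at or under the highest Mated queen in 114 of these 139, and in 3161 of all 3793 tested genes, a like share. By chi-square on thinned counts the library nearest to it was CO2-treated replicate 5, of the same line_141, at 10.2 per degree of freedom. Without TMM scaling the gene had 149.8 CPM in it, against 770.9 to 859.6 CPM in the other 4 diapause queens, so that the gap was there on either scale.

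The nearest genes of the table on the scaffold were described too. Cryptochrome-1-like was chosen on its diapause level, so a smaller change in its neighbours is not read as a result. The hypothetical protein LOC100647154 ended 316 bases before cryptochrome-1-like. It had 55.4, 177.5, 153.3, 176.0 and 143.8 CPM in Diapause queens, against 80.9, 97.2, 66.2, 82.5 and 43.5 CPM in Mated queens. Its log2 fold change was 0.94 ± 0.41 (edgeR adjusted p 0.171), with the same low Diapause replicate 1. FAM13B-like (LOC100646305), 14291 bases before, had 0.58 (edgeR adjusted p 0.387), and filamin-C-like (LOC100648105), 63187 bases after, -0.07 (edgeR adjusted p 0.950). In Founder post diapause over Diapause these 3 neighbours were lower, by 1.80, 1.69 and 1.48 on the log2 scale (edgeR adjusted p 0.000675, 0.000812 and 0.00376), beside 80.9% of all genes called, 40.6% lower, so a fall here was common. The sources used here do not say whether counting used strand, so reads near LOC100647154 cannot be assigned by strand. The fourth neighbour, LOC100648218, did not pass the filter.

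The tissue was the eviscerated abdomen with attached fat bodies. Genes named for muscle, ovary, gut, neurons and hemocytes were summed beside fat body markers, and which of these tissues it held was not tested. In bulk RNA fewer cells of a type and less RNA per cell cannot be told apart. The summed CPM of 6 fat body markers was 1063 to 2141 in Founder post diapause and 4120 to 10728 in Diapause queens, against 20741 to 46735 in 4 Mated queens and 741 in the shallow Mated replicate 2. Diapause queens were thus below every Mated queen but that one. The 5 muscle markers summed to 4592 to 7423 CPM in Founder post diapause and 12673 to 34116 in Diapause queens, against 11890 to 35127 in Mated queens. Fat body and muscle sums thus lay lower in all 5 Founder post diapause queens than in any Diapause queen. Their single members went both ways. In Founder post diapause over Diapause the log2 fold changes ran from -8.06 to 2.82 for fat body and from -2.83 to 2.06 for muscle. The 6 germ line and ovary names summed to 774 to 4219 CPM in Founder post diapause, 583 to 1117 in Diapause and 1028 to 5964 in Founder post CO2 queens, against 453 to 720 in Mated queens. Neuron markers, 7 of 8 tested, summed to 408 to 900 CPM in Founder post diapause and 466 to 589 in Diapause queens, against 523 to 1010 in Mated queens. The 22 gut names summed to 5285 to 49649 CPM in Founder post diapause and 2044 to 8192 in Diapause queens, against 4452 to 5538 in Mated queens. The 3 hemocyte markers summed to 632 to 1222 CPM in Founder post diapause and 436 to 1335 in Diapause queens, against 461 to 6706 in Mated queens.

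Without Mated replicate 2 the fat body sums did not overlap between Diapause and Mated queens, and those of the other 5 lists did. In no library was more than 1 member of a list at 0. The part of these markers in the diapause and founder differences was not tested. Name matching also caught genes of other kinds, such as a chymotrypsin inhibitor in the gut list and ovarian cancer or ovarian killer names in the ovary list.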

How the data were processed

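PolyA RNA of single queens had been sequenced, and the authors deposited raw read counts per exon-sized interval, with 1 column per library; this table covers part of the transcriptome, so its totals are not sequencing depth. Per the submitters' processing notes, Trimmomatic, TopHat and DESeq were used, with no version or role named. The build, counter, strand setting and choice of intervals were not stated in the labels or files. Positions of the deposited gene models, as given by the authors, served to check interval lengths.

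Counts were summed per gene, and the columns of all 25 libraries were matched by the sample number in their names. In R 4.3.3, edgeR 4.0.16 (limma 3.58.1) kept 3793 genes with filterByExpr (minimum count 10, minimum total 15) and removed 68. The quasi-likelihood model took all 25 libraries together, scaled by TMM, with group as its 1 term, leaving 20 residual degrees of freedom. Tests were two-sided, with Benjamini-Hochberg adjustment over all tested genes and a threshold of 0.05. The coefficient of variation between queens was 51.4%, and the depth of the shallow libraries limits precision further. Likeness used log2 CPM with a prior count of 2. Python 3.11.15 with pandas 2.3.3, numpy 2.4.6, scipy 1.17.1 and matplotlib 3.10.9 handled tables, intervals and plots. Only the fit of Diapause against Mated and the likeness measure were tried on simulated counts. The simulated spread between queens was smaller than that found here, with no outlying library.

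Named genes were cryptochrome-1-like, the core clock genes, members of the clock and light lists called in diapause against Mated or CO2-treated queens, the 10 genes most alike and the 2 nearest genes on each side; other list members with values in the text were named after their values were seen. The members and lists were chosen with earlier results of these data known. Alternatives were DESeq2 1.42.0, other scalings, filters and prior counts, genetic line as a replicate block, and leaving out libraries. Replicate numbers were given in accession order and pair nothing. Genetic line, which the labels give, tied queens only weakly: residuals of queens of the same line had a median correlation of 0.0648 over 46 pairs, against -0.0159 over 204 pairs of other lines.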

Additional observations from a re-analysis of the deposited data

Results flagged for a closer look

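Of 95 groups of 5 queens examined over 19 genes, 11 had a library apart from the other 4, with a gap of more than 0.71 of the group's range. The cut was set for about 1 in 20 by chance. That rate is no benchmark here, because the genes share libraries and include cryptochrome-1-like, chosen on its diapause level, and the genes most like it. Diapause replicate 1 was the low library in 5 of these: cryptochrome-1-like at 132.8 CPM, tankyrase-1-like (LOC100645812) at 63.8 CPM, LOC100648836 at 98.5 CPM, SPT6-like (LOC100652318) at 79.2 CPM and the neighbour LOC100647154 at 55.4 CPM. The alike genes had been chosen for a pattern that includes this library.

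The shallow libraries were the high ones in 3 groups. E75B-like (LOC100644185) stood at 1979 CPM in CO2-treated replicate 3 and 2549 CPM in Mated replicate 2, and FAM13B-like (LOC100646305) at 528 CPM in CO2-treated replicate 3. Period stood at 286.9 CPM in Mated replicate 1, above the other 4 Mated queens. LOC100648836 stood at 99.0 CPM in CO2-treated replicate 5, and arrestin domain-containing protein 2-like (LOC100649489) at 0.957 CPM in Founder post diapause replicate 2, both below the rest of their group. The latter value rests on 3 counts, against 4, 5, 7 and 6 in replicates 1, 3, 4 and 5, a gap within counting error.

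The change to founder differed between the routes for arrestin domain-containing protein 3-like (LOC100643805). Its mean was 419 CPM in Diapause and 150 CPM in CO2-treated queens. In founders it was 79.1 CPM after diapause and 91.6 CPM after CO2, so the routes differed mainly in their starting levels. The log2 change after diapause less that after CO2 was -1.69 ± 0.41 (SE, edgeR adjusted p 0.0337). Of all genes 92 passed this test, 2.43%, and of the 17 clock genes 0 did by edgeR.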

How the results depend on the processing

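Of 530 recomputed values, 516 kept their direction and their side of the threshold or stayed close to the reported value. For the untested diapause fold changes of the gene, close meant within 1.19 on the log2 scale, its SD among Diapause queens. That bound was wider than any move seen in them, so their share of the 516 says little. Counts of clock and alike genes were close within a set ratio. In CO2-treated over Mated the log2 fold change of cryptochrome-1-like reversed without Mated replicate 2, at -0.0149, and ran from -0.0149 to 0.244 with 1 library left out. In Founder post diapause over Mated it ran from -1.29 to -1.02, losing its call without Mated replicate 1 and without Founder post diapause replicate 1. With genetic line as a replicate block, it kept that call at an adjusted p of 0.0344, and DESeq2 gave 0.0163. Without the 2 shallow libraries, 1 clock gene was called in Founder post CO2 against CO2-treated (3 reported), beside 15.8% of all genes. In that setting 1 was called in Diapause against Mated (0 reported), beside 8.41% of all genes, and 4 of the 10 alike genes remained. With Diapause replicate 1 also left out, 3 clock genes were called in Diapause against Mated and 3 against CO2-treated. All genes were then called at 31.5% and 36.5%, and 4 of the 10 alike genes remained. In Founder post CO2 against CO2-treated DESeq2 called 5, and leaving out 1 library gave 1, without CO2-treated replicate 3, to 5, without Founder post CO2 replicate 2 or 4. Ranking by Pearson's r kept 1 of the 10 alike genes. The cause of these changes was not tested. The paired fit left 1.34% of all genes called in Diapause against Mated and 3.43% against CO2-treated, against 5.69% and 6.43% without the block. Omitting TMM moved the median of all genes by over 0.1 on the log2 scale in several comparisons, by up to -0.206 in Founder post diapause over Founder post CO2. Counts of 47 and 68 in the shallow libraries limit what can be said of cryptochrome-1-like there.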
